A study of Mus musculus with 4 samples.

Results

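The cells described here are the inhibitory neurons of the mouse ventromedial prefrontal cortex (vmPFC), taken as the cells that the authors' coarse Leiden annotation names inhibitory. There were 1420 of them among 20047 annotated cells, beside 8805 excitatory neurons and 9822 non-neuronal cells. They came from MERGE-seq, which reads the transcriptome of a cell together with barcodes of retrograde viruses that name the regions its axon reaches. Male C57BL/6 mice received rAAV2-retro with EGFP and a different barcode in each of 5 targets on 1 side of the brain at 8 weeks of age: the agranular insular cortex (AI), dorsomedial striatum (DMS), mediodorsal thalamus (MD), basolateral amygdala (BLA) and lateral hypothalamus (LH). Every mouse carried all 5 viruses, with EGFP driven by a short CAG promoter that is not limited to a cell type. Mouse 1, mouse 2 and mouse 3 gave 1 library each from cells that were not sorted. The FAC-sorted library pooled EGFP-positive cells of 3 other mice and has no replicate. No group without virus was among the samples.

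Inhibitory neurons of the cortex release GABA, which is made by the enzymes encoded by Gad1 and Gad2, the usual markers of the class. Most of them are interneurons whose axons stay within the local circuit, while the excitatory pyramidal neurons send most long-range axons. A small set of cortical GABA neurons with long axons is also known. A retrograde virus is taken up at axon terminals and carried back to the cell body. The paper describes the class as positive for Gad1. The label was not checked against Gad1 and Gad2 here, because the gene count tables were not analysed, so the name rests on the authors' annotation.

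The 5 barcodes are what ties a cell to a target, so their sequences are given before any count. Capitals mark the bases that none of the other 4 barcodes has at that position.
AI: CtgCAccgaCGcAtt
DMS: gaAggcAcagacTtt
MD: gttggcTgCAaTcCa
BLA: AagAcgccgTCGcaa
LH: TatTcgGAggacGaC
Each barcode differed from its nearest neighbour at 10 of 15 positions, and a read was assigned with up to 2 mismatches. A barcode was called valid in a cell above a limit of its own: 28 UMIs (AI), 101 UMIs (DMS), 114 UMIs (MD), 35 UMIs (BLA) or 103 UMIs (LH). A UMI is a random tag that marks a cDNA molecule before amplification. The authors set these limits on non-neuronal and EGFP-negative cells, so the low barcoded share of non-neuronal cells follows from the rule. Inhibitory neurons could enter that step only as EGFP-negative cells of the FAC-sorted library. A cell above at least 1 limit is called barcoded.

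Projectome reads per recovered cell ranged from 2542 to 4544 in the 3 mice and reached 14639 in the FAC-sorted library. Barcoding by these limits matched the authors' label in each of the 20047 cells. Libraries shared 52 cell barcodes among annotated cells. Of the inhibitory neurons 10 had such a cell barcode, none of them barcoded, and no combination of cell barcode, UMI and virus barcode occurred in more than 1 library.

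Inhibitory neurons were a minority of similar size in each unsorted mouse and were nearly absent after sorting for EGFP. In mouse 1 they were 499 of 6614 cells, or 7.54% (95% exact binomial interval 6.92 to 8.21). In mouse 2 they were 496 of 5966 cells, or 8.31% (7.63 to 9.04). In mouse 3 they were 417 of 5775 cells, or 7.22% (6.57 to 7.92). The 3 mice averaged 7.69% ± 0.56 (SD, n = 3), and the values lay close together. In the FAC-sorted library 8 of 1692 cells were inhibitory, or 0.473% (0.204 to 0.929), below every mouse. FAC-sorted minus unsorted, the difference was -7.22 percentage points. It is given as a description, since an exact one-sided permutation test of 1 library against 3 cannot give a p below 0.25. These intervals, like all that follow, cover counting error only.

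Set against neurons alone, the pattern was the same. Inhibitory neurons were 16.0%, 17.8% and 15.4% of neurons in mouse 1, mouse 2 and mouse 3, with a mean of 16.4% ± 1.29 (SD, n = 3). In the FAC-sorted library they were 8 of 1619 neurons, or 0.494% (0.214 to 0.971). A share of cells after sorting depends on the gate as well as on the tissue, and the FAC-sorted cells were also read more deeply.

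Inhibitory neurons held less RNA per cell than excitatory neurons in every library. The median inhibitory neuron had 12715 RNA UMIs in mouse 1, 12814 in mouse 2, 13964 in mouse 3 and 20832 in the FAC-sorted library. The median excitatory neuron had 20760, 21580, 22426 and 30667 in the same order. The inhibitory medians were therefore 0.612, 0.594, 0.623 and 0.679 times the excitatory ones. The log2 ratio was -0.71 ± 0.03 over the mice (SD, n = 3). Flipping the signs of the 4 libraries in all ways, an exact two-sided test, gave p = 0.125, the lowest value possible. Glial and vascular cells were lower again, with medians between 3988 and 4277 RNA UMIs in the mice.

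Genes detected per cell followed the same order. Inhibitory neurons had a median of 4448, 4431 and 4593 genes in the 3 mice and 5824 after sorting. Excitatory neurons had 5544, 5630, 5686 and 6640. The log2 ratio was -0.32 ± 0.02 over the mice (SD, n = 3) and -0.19 after sorting, with p = 0.125 in the exact sign-flip test over 4 libraries. Within ranges of RNA depth the gap was smaller, and the ranges did not equalise depth. Among unsorted cells with 10000 to 15000 RNA UMIs, inhibitory neurons had a median of 4393 genes at 12522 RNA UMIs and excitatory neurons 4549 genes at 13440. With 20000 to 30000 RNA UMIs the medians were 5916 genes at 23817 and 5863 at 23885. Above 30000 they were 6964 genes at 35078 and 6658 at 32512.

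**Figure D1:**
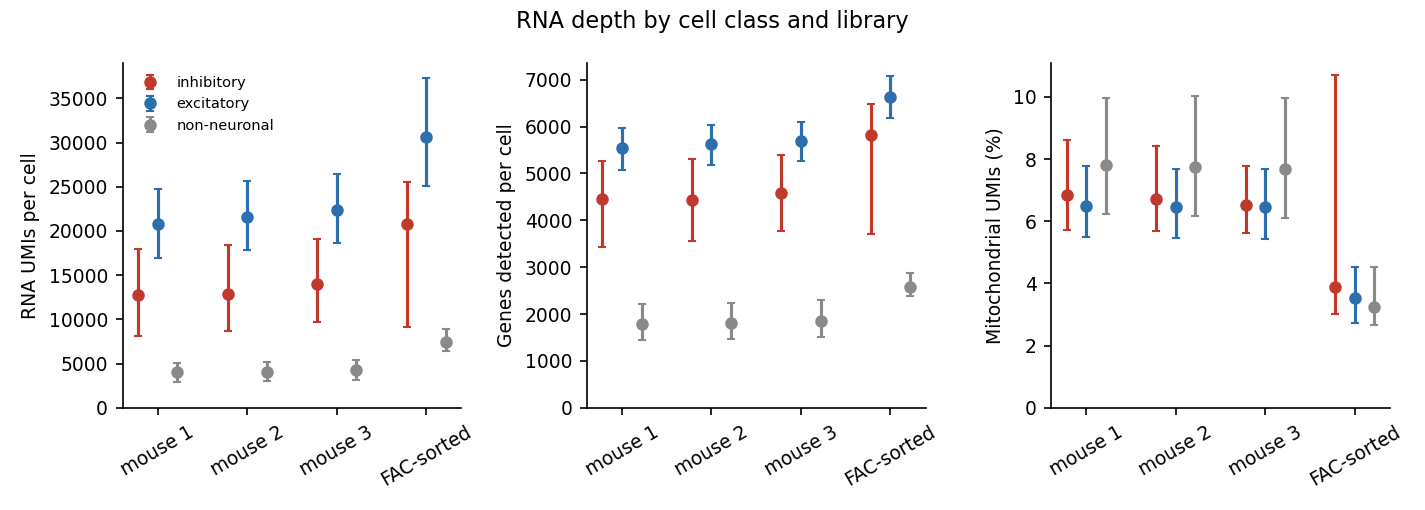
RNA UMIs per cell, genes detected per cell and the percentage of mitochondrial UMIs (vertical axes) for the 3 mice and the FAC-sorted library (horizontal axis). Points are medians over cells, bars run from the 25th to the 75th percentile, and colours mark the class. Inhibitory medians of RNA UMIs, from 12715 to 20832, lie between those of excitatory and non-neuronal cells in each library.

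The mitochondrial share, often read as a sign of stressed or leaking cells, was slightly higher in inhibitory than in excitatory neurons. Inhibitory medians were 6.83%, 6.70% and 6.54% in the 3 mice, and the FAC-sorted value was 3.87%. Excitatory medians were 6.48%, 6.47%, 6.45% and 3.55%. The difference of medians was 0.23 ± 0.13 percentage points over the mice (SD, n = 3) and 0.33 after sorting, with p = 0.125 in the exact sign-flip test over 4 libraries. It was not steady over depth. At 5000 to 10000 RNA UMIs the inhibitory median was lower, 6.06% against 6.97%, and at 20000 to 30000 it was higher, 7.47% against 6.35%. Of the 8 FAC-sorted inhibitory neurons, 3 had 9.43%, 14.5% and 15.8% mitochondrial UMIs, and these 3 had the fewest RNA UMIs of the 8. Ribosomal protein genes took 6.21%, 6.40% and 6.59% of the UMIs of the median inhibitory neuron in the mice, above the excitatory 5.39%, 5.59% and 5.84%. The FAC-sorted library ran the other way, with 4.66% against 4.85%.

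The authors' clustering divided the inhibitory neurons into Leiden clusters 6 and 10, which are left unnamed because their marker genes were not analysed here. Cluster 6 held 948 and cluster 10 held 472 cells. Cluster 6 made up 66.3%, 69.2% and 65.2% of inhibitory neurons in the 3 mice, a mean of 66.9% ± 2.02 (SD, n = 3), so the split varied little between mice. In the FAC-sorted library it held 2 of 8 cells and cluster 10 held 6, too few cells to place against the mice. Cells of cluster 10 were deeper, with medians of 16391, 17336 and 18107 RNA UMIs in the mice against 9965, 10532 and 12008 in cluster 6. Median genes were 5154 ± 109 in cluster 10 and 4053 ± 210 in cluster 6 (SD, n = 3), and the values of the mice did not overlap. Barcoded cells occurred in both, 10 in cluster 6 and 7 in cluster 10. That is 1.05% (0.507 to 1.93) and 1.48% (0.598 to 3.03), and the intervals overlap.

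A second clustering in the annotation, by Louvain, placed 1405 of the 1420 cells in 2 clusters that held inhibitory neurons only, 933 in cluster 6 and 472 in cluster 10. The other 15 cells lay among another class. In Louvain cluster 0 there were 12, beside 4970 excitatory neurons, and in Louvain cluster 2 there were 3, beside 2948 microglia. All 15 were in Leiden cluster 6. The 12 had a median of 22988 RNA UMIs and 55.5 barcode UMIs, against 10608 and 16 for the inhibitory neurons of Louvain cluster 6. Among these 15 cells 3 were barcoded, and each is named below. Whether a droplet held cells of both classes was not tested.

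Most inhibitory neurons held a few virus barcode molecules, and their number rose with the RNA content of the cell. The median inhibitory neuron had 13.0, 23.0 and 22.0 barcode UMIs over the 5 barcodes in the 3 mice and 87.5 after sorting. Excitatory neurons had 35.0, 52.0, 49.0 and 201.0, and non-neuronal cells 4.0, 7.0, 7.0 and 32.0. Among inhibitory neurons Spearman's rho between barcode UMIs and RNA UMIs was 0.79 in mouse 1 (499 cells), 0.83 in mouse 2 (496 cells) and 0.77 in mouse 3 (417 cells). It was 0.40, 0.43 and 0.44 among excitatory neurons. These values describe cells of 1 library each, which share its depth. Only 30 of 1412 unsorted inhibitory neurons had no barcode UMI in the deposited tables.

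**Figure D2:**
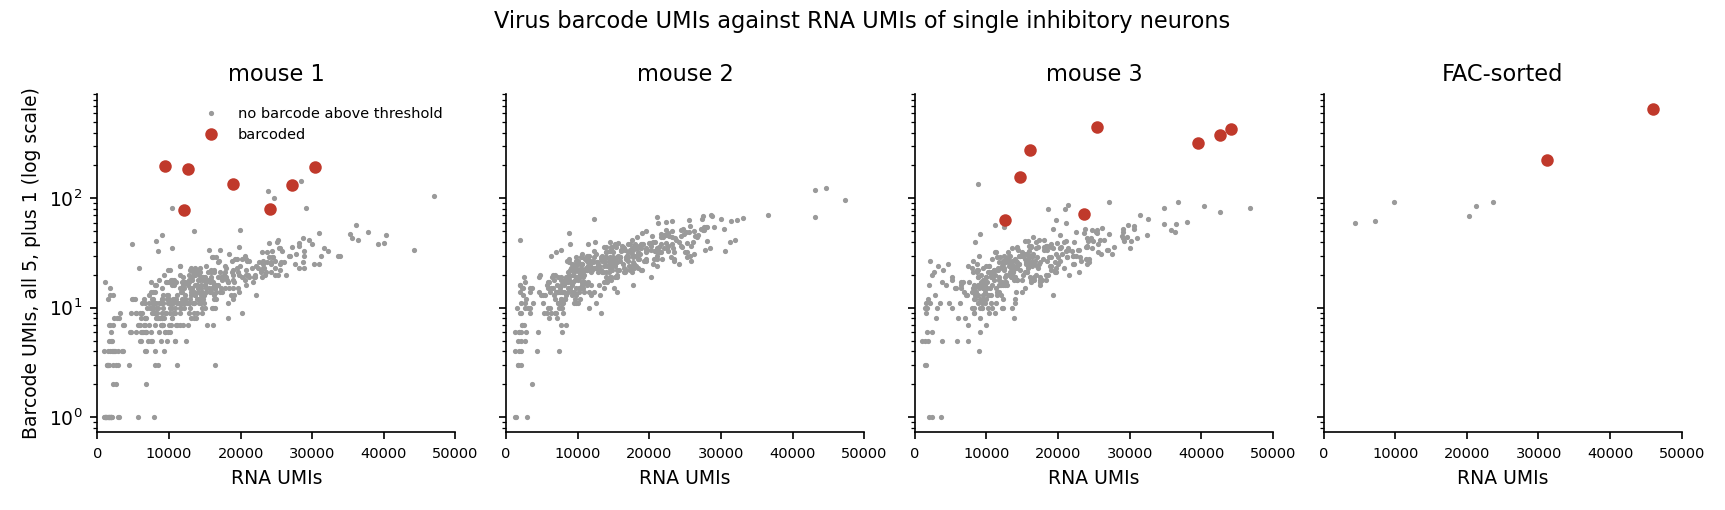
Barcode UMIs summed over the 5 barcodes, plus 1, on a log scale (vertical axis) against RNA UMIs (horizontal axis), 1 point per inhibitory neuron and 1 panel per library. Grey points have no barcode above its limit and form a band that climbs with RNA depth. The 17 barcoded cells, in red, lie above the band or at its upper edge, and mouse 2 has none.

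To compare cells of unequal depth, barcode UMIs were summed over the cells with no valid barcode and divided by their RNA UMIs. Labelled cells may be among these, since the paper proposes that its strict limits add false negatives. How many there were in each class was not tested. Per 10000 RNA UMIs, inhibitory neurons held 11.4 barcode UMIs in mouse 1 (492 cells), 18.1 in mouse 2 (496 cells) and 16.9 in mouse 3 (409 cells). Excitatory neurons held 23.7, 29.4 and 27.9. Non-neuronal cells held 11.6, 19.3 and 17.8. Over cells of all depths, then, inhibitory neurons of each mouse lay below excitatory neurons and next to non-neuronal cells. Non-neuronal cells were shallower, and no comparison with them was matched for depth. Inhibitory neurons with up to 5000 RNA UMIs held 17.5, 34.0 and 39.4 in the 3 mice. Those with 5000 to 10000 RNA UMIs held 11.4, 19.5 and 19.1.

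The rate in inhibitory neurons was 0.480, 0.615 and 0.604 times the excitatory rate in the 3 mice, a log2 ratio of -0.83 ± 0.20 (SD, n = 3). The FAC-sorted library went against this, with 52.5 in 6 inhibitory neurons and 49.5 in 820 excitatory neurons, or a log2 ratio of 0.08. Over the 4 libraries the mean log2 ratio was -0.60, with p = 0.25 in an exact sign-flip test whose smallest p is 0.125. Cells of similar depth gave the same order in all 4 libraries. Within the middle 50% of inhibitory RNA depth, the rates were 10.9, 18.1 and 16.2 in inhibitory and 25.2, 29.6 and 29.3 in excitatory neurons of the mice. After sorting they were 44.6 in 4 inhibitory and 54.3 in 280 excitatory neurons, a log2 ratio of -0.28. The mean log2 ratio over the 4 libraries was then -0.77, with p = 0.125 in the exact sign-flip test. When cells were kept only with every barcode at or below the count that 1 in 100 non-neuronal cells exceeds, the mean log2 ratio over the mice was 0.11. That rule kept 29.0% to 46.9% of the excitatory and 81.0% to 91.8% of the inhibitory neurons of a mouse.

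Against non-neuronal cells the rate was 0.979, 0.937 and 0.950 times as high in the 3 mice, a log2 ratio of -0.07 ± 0.03 (SD, n = 3), and 1.35 times as high after sorting. The mean over the 4 libraries was 0.06, with p = 1.0 in the exact sign-flip test, and it turned to -0.07 without the FAC-sorted library. The direction in the mice depended on the summary. As a median over cells of the ratio per cell, the log2 ratios were 0.04, 0.09 and 0.03 in the mice and 0.64 after sorting, a mean of 0.20 with p = 0.125 in the exact sign-flip test. The deposited tables list counts of 1 UMI as 0 for all barcodes but that of AI. A recount that kept these UMIs raised the rate of mouse 1 from 11.4 to 12.0 in inhibitory neurons and from 11.6 to 13.8 in non-neuronal cells, and gave log2 ratios of -0.21, -0.20 and -0.18 in the mice. Mean log2 ratios of MD, BLA and LH over the mice changed sign with it, from 0.07, 0.45 and 0.19 as deposited to -0.24, -0.24 and -0.23.

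The gap to excitatory neurons differed in size between barcodes. For MD, inhibitory neurons held 1.77, 3.10 and 2.92 UMIs per 10000 RNA UMIs in the mice, and excitatory neurons 6.12, 7.03 and 6.99. For LH the values were 1.65, 2.25 and 1.77 against 4.62, 5.41 and 4.51. For BLA, the rarest barcode, they were 0.141, 0.382 and 0.361 against 0.588, 0.949 and 0.838. Mean log2 ratios over the mice were -1.41 ± 0.33 for MD, -1.37 ± 0.11 for LH and -1.53 ± 0.46 for BLA (SD, n = 3). In the recount that kept single UMIs they were -1.35 ± 0.28 for MD, -1.27 ± 0.08 for LH and -0.89 ± 0.22 for BLA, so the BLA value of the deposited counts rests in part on entries of 1 UMI listed as 0.

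In the deposited counts the gap was smaller for the cortical and striatal barcodes. For AI, inhibitory neurons held 0.930, 1.43 and 1.39 UMIs per 10000 RNA UMIs and excitatory neurons 1.67, 2.27 and 2.24. For DMS, the most abundant barcode, they held 6.92, 10.9 and 10.4 against 10.7, 13.8 and 13.4. Mean log2 ratios were -0.74 ± 0.09 for AI and -0.44 ± 0.17 for DMS (SD, n = 3). In the recount they were also -0.74 ± 0.09 and -0.44 ± 0.16. Some UMIs were read with more than 1 barcode in a cell. When the recount credited such a UMI only to the barcode with most reads, or to none on a tie, the mean log2 ratios changed. They were 0.03 ± 0.07 for AI, -0.24 ± 0.15 for DMS and -0.03 ± 0.22 for BLA. For MD and LH they were -1.20 ± 0.30 and -1.02 ± 0.06 (SD, n = 3).

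**Figure D3:**
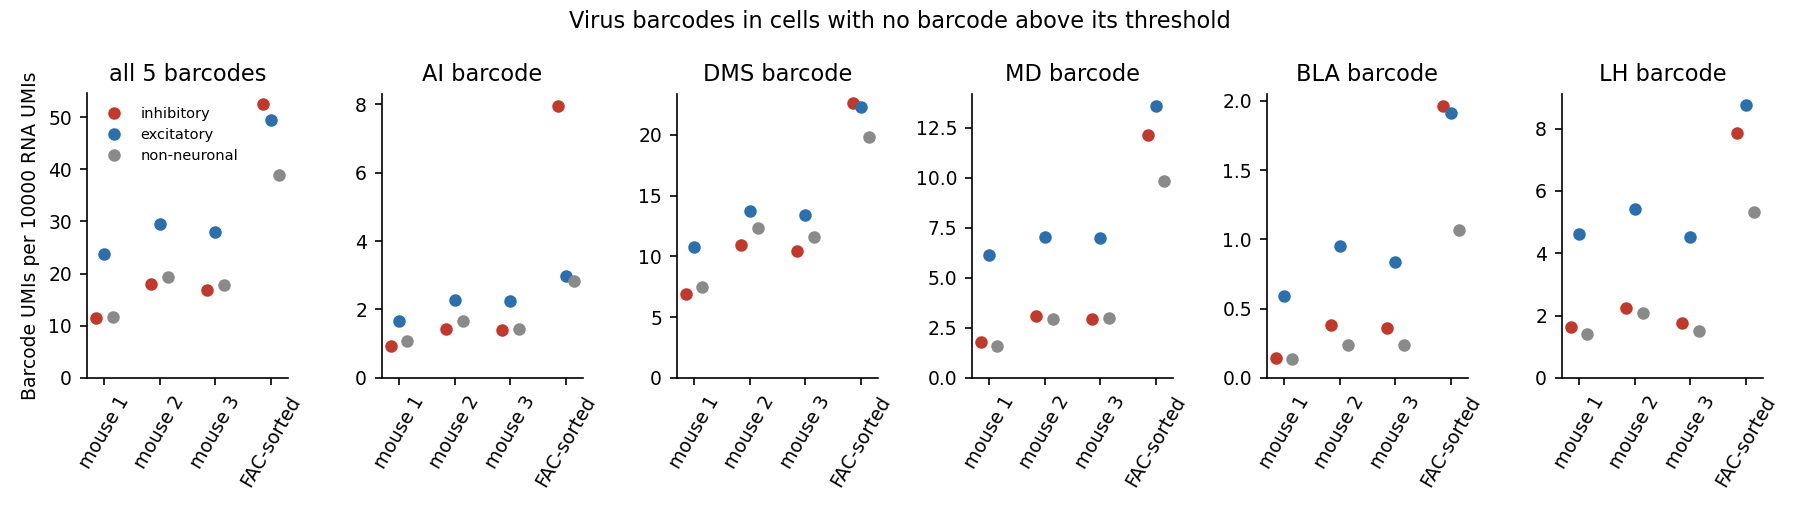
Barcode UMIs per 10000 RNA UMIs (vertical axes, linear, each panel with its own scale) in cells with no barcode above its limit, for the 3 mice and the FAC-sorted library (horizontal axes). Points are summed counts of a class in a library. In the mice the inhibitory points lie near the non-neuronal ones and below the excitatory ones in these deposited counts. MD in mouse 1 is an example, with 1.77 against 6.12. The mean log2 ratios of AI and BLA were -0.74 and -0.89 in the recount. They were 0.03 and -0.03 when the recount also counted a shared UMI at most once. In the FAC-sorted library the AI rate of inhibitory neurons, 7.96 from 6 cells, is above the excitatory 2.98.

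In the mice, for DMS, MD and LH, the make-up of the background was also closer to that of non-neuronal cells than to that of excitatory neurons. DMS took 60.6%, 60.4% and 61.8% of barcode UMIs in inhibitory neurons of the 3 mice, 64.1%, 64.0% and 65.3% in non-neuronal cells, and 45.2%, 46.8% and 47.8% of the excitatory counts. MD took 15.5%, 17.1% and 17.3% in inhibitory neurons, against 25.8%, 23.9% and 25.0% in excitatory neurons. LH took 14.5%, 12.5% and 10.5% against 19.5%, 18.4% and 16.1%. The inhibitory and excitatory values of the mice did not overlap for any of these 3 barcodes. After sorting, the DMS share was 43.1% in 6 inhibitory neurons, nearer to the excitatory 45.0% than to the non-neuronal 50.9%. MD and LH stayed nearer to the non-neuronal values after sorting. MD took 23.1% beside 25.4% (non-neuronal) and 27.5% (excitatory), and LH took 14.9% beside 13.7% and 17.7%. AI took 15.2% after sorting, beside 7.26% and 6.02% in the same order.

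Molecules that were read many times were rare in inhibitory neurons of the mice, in a view added after the data had been seen. In the mice, molecules read at least 10 times made up 3.26% ± 2.09 of the barcode molecules of inhibitory neurons, 16.2% ± 1.16 of those of excitatory neurons and 3.13% ± 0.29 of those of non-neuronal cells (SD, n = 3). At least 1 such molecule was found in 156 of 1412 inhibitory neurons, or 11.0% (9.46 to 12.8), against 57.9% (56.8 to 59.1) of excitatory and 8.88% (8.33 to 9.47) of non-neuronal cells. The inhibitory share was 10.4% in mouse 1, 9.07% in mouse 2 and 14.1% in mouse 3, and the excitatory share between 57.3% and 58.7%. At least 10 such molecules were found in 24 inhibitory neurons of the mice, 1.70% (1.09 to 2.52), against 38.7% (37.6 to 39.8) of excitatory neurons and 0.451% (0.328 to 0.605) of non-neuronal cells. Of the 24, 12 were barcoded and 12 were not. Among such excitatory neurons 1323 were barcoded and 1461 were not, and among such non-neuronal cells 15 and 29. After sorting, 12.2% of the barcode molecules of inhibitory and 12.0% of those of excitatory neurons were read at least 10 times, but 143 of the 163 such inhibitory molecules lay in the 2 barcoded cells. The 6 inhibitory neurons with no valid barcode had 20 of 456 molecules, or 4.39%, against 6.53% in such excitatory neurons. In the mice these shares were 2.42%, 0.853% and 1.56% against 13.5%, 10.5% and 10.6%. At least 1 such molecule was found in 75.0% of the 8 sorted inhibitory and 93.5% of the sorted excitatory neurons, and at least 10 in 25.0% and 65.2%.

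Few inhibitory neurons were barcoded. The authors had removed the cells with the highest barcode totals, which have no class in the annotation, so counts and shares of barcoded cells and the highest barcode totals hold for the cells that were kept. In mouse 1 they were 7 of 499, or 1.40% (0.566 to 2.87), in mouse 3 they were 8 of 417, or 1.92% (0.832 to 3.75), and in the FAC-sorted library 2 of 8, or 25.0% (3.19 to 65.1). Mouse 2 had 0 of 496, which allows a share of up to 0.605% (3 counts of the total), or 0.741% as the upper end of the exact interval. Excitatory neurons were barcoded in 16.5%, 19.5% and 19.5% of cells in mouse 1, mouse 2 and mouse 3, and in 49.1% in the FAC-sorted library. The inhibitory share was lower in each of the 4 libraries, with differences of -15.1, -19.5, -17.6 and -24.1 percentage points. Over the mice alone the mean difference was -17.4 ± 2.22 percentage points (SD, n = 3). Exact sign flipping gave p = 0.125, again the lowest value possible with 4 libraries. The difference of the FAC-sorted library rests on 8 cells, and it was 9.61 percentage points when reads were thinned to the number per cell of mouse 1. For comparison, 15 of 9749 unsorted non-neuronal cells were barcoded, or 0.154% (0.0861 to 0.254), a share that the limits themselves set.

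The difference was also present within ranges of RNA depth. In each range of RNA UMIs the inhibitory share was the lower one. At 10000 to 15000 RNA UMIs, 4 of 399 unsorted inhibitory neurons were barcoded, or 1.00% (0.274 to 2.55), against 7.07% (5.00 to 9.66) of excitatory neurons. At 20000 to 30000 they were 4 of 237, or 1.69% (0.462 to 4.26), against 21.4% (20.1 to 22.8). Above 30000 they were 4 of 52, or 7.69% (2.14 to 18.5), against 33.7% (30.0 to 37.6). Within the middle 50% of inhibitory RNA depth, 3 of 249, 0 of 248 and 3 of 209 inhibitory neurons of the mice were barcoded, against 8.90%, 12.1% and 10.6% of excitatory neurons. If inhibitory neurons had been barcoded as often as excitatory neurons of the same library and depth range, 153 of the 1412 unsorted cells would have been barcoded, where 15 were.

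**Figure D4:**
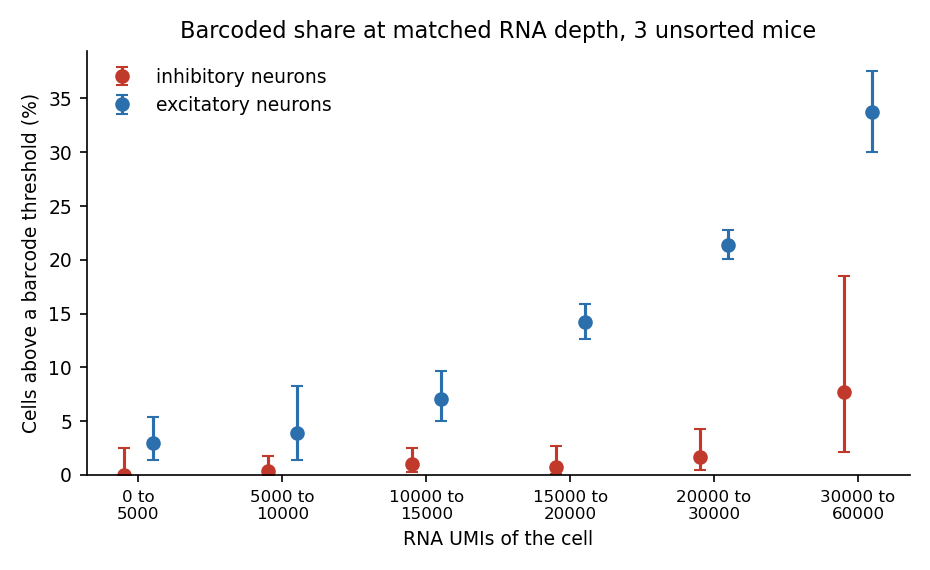
Percentage of cells with at least 1 barcode above its limit (vertical axis) in ranges of RNA UMIs per cell (horizontal axis), for inhibitory and excitatory neurons summed over the 3 unsorted mice. Bars are 95% exact binomial intervals. Inhibitory shares run from 0 of 148 cells in the lowest range, with an interval up to 2.46%, to 7.69% in the highest, and excitatory shares from 2.96% to 33.7%.

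In the 17 barcoded inhibitory neurons AI was the barcode most often valid. AI was valid in 16 of them, DMS in 5, LH in 2, MD in 1 and BLA in 0, 24 valid counts in all. AI was thus 66.7% of the valid counts of inhibitory neurons and 25.9% of the 3187 of excitatory neurons, among which DMS was the most frequent target with 1284. These shares pool libraries that differed. In mouse 1 they were 100% of 7 counts against 24.7%, and in mouse 3 58.3% of 12 counts against 32.8%. In the FAC-sorted library they were 40.0% of 5 counts against 22.1%. Within mouse 3, AI was valid in 7 inhibitory neurons and DMS in 4. Mouse 2 had no valid inhibitory count. AI alone was valid in 11 cells, and 5 cells had more than 1 valid barcode. Of the 16 AI counts 6 were within 1.5 times the limit of 28. AI kept its lead with limits that 1 in 1000 non-neuronal cells exceeds, with 18 valid counts against 9 for DMS. It also led DMS with exact matches (14 against 5), UMIs of at least 2 reads (7 against 2) and thinned reads (11 against 4). With a shared UMI counted only for the barcode with most reads, the counts were 13 against 4. In that counting AI fell below its limit in the mouse 3 cells 5, 7 and 8, described below. With limits per 10000 RNA UMIs that 1 in 1000 non-neuronal cells exceeds, AI had 5, and BLA came next with 2. The lead was lost with the low limits that 1 in 100 non-neuronal cells exceeds, 5 UMIs for AI and 24 for DMS. Inhibitory neurons then had 146 valid counts for DMS, 91 for LH, 84 for MD, 72 for AI and 34 for BLA. Excitatory neurons had 5227 for DMS and 4091 for AI.

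All 7 barcoded inhibitory neurons of mouse 1 were valid for AI alone, and they are numbered here by rising RNA depth. Cell 1, with 9438 RNA UMIs, had 120 AI UMIs, the highest AI count of an unsorted inhibitory neuron, beside 41 DMS, 18 MD, 0 BLA and 16 LH UMIs. Cell 2 (12148 RNA UMIs) had 45 AI UMIs, and cell 3 (12715 RNA UMIs), one of the 3 cells in the microglial Louvain cluster, had 116. These 3 shallow cells were at or below the median depth of inhibitory neurons of the library.

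The other 4 cells of mouse 1 were deeper. Cell 4 (19014 RNA UMIs) had 74 AI UMIs, cell 5 (24068) had 39, cell 6 (27134) had 65 and cell 7 (30435) had 58. Cell 7 also had 61 DMS and 45 MD UMIs, below their limits. Excitatory neurons of mouse 1 valid for AI alone, 75 cells, had a median of 63.0 AI and 52.0 DMS UMIs, and the 7 inhibitory cells 65.0 and 33.0. AI molecules with at least 10 reads had medians of 25.0 in these inhibitory and 21.0 in these excitatory neurons.

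In mouse 3, 3 of the 8 barcoded cells were valid for AI alone. Cell 1 (12647 RNA UMIs) and cell 4 (23566) had 29 AI UMIs each, 1 above the limit. Cell 2 (14644) had 70 AI UMIs and 14.3% mitochondrial UMIs, the highest mitochondrial share of the 17. The 3 cells had medians of 29.0 AI UMIs and 7.0 AI molecules with at least 10 reads, below the 66.5 and 22.5 of the 50 excitatory neurons of mouse 3 valid for AI alone.

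The other 5 cells of mouse 3 carried more barcode UMIs, between 276 and 450. Cell 3 (16024 RNA UMIs), which lay in the excitatory Louvain cluster, had 44 AI and 137 DMS UMIs. Cell 5 (25450) had 34 AI and 261 DMS UMIs, and cell 8 (44139) had 33 and 257. Cell 6 (39502) was valid for DMS alone, with 180 DMS and 22 AI UMIs. Cell 7 (42615) had 30 AI and 126 LH UMIs, with 101 for DMS, exactly at the limit, and 102 for MD. Cells 6, 7 and 8 were among the 6 deepest of the 417 inhibitory neurons of mouse 3.

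In the FAC-sorted library, the 2 deepest of the 8 inhibitory neurons were the barcoded ones. Cell 1 (31193 RNA UMIs) was valid for AI alone, with 86 AI and 67 DMS UMIs, where 48 excitatory neurons valid for AI alone had a median of 40.5 AI UMIs. Cell 2 (46031 RNA UMIs, 7973 genes), in the excitatory Louvain cluster, was valid for AI, DMS, MD and LH, with 154, 154, 146 and 176 UMIs. It had the most barcode UMIs of any inhibitory neuron kept, 658. The other 6 cells had 4359 to 23586 RNA UMIs and 59 to 92 barcode UMIs, and the highest AI count among them was 27, just below the limit.

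Some second targets rested on shared UMIs, in which the same tag of a cell was read with more than 1 virus barcode. Each such UMI was then counted only for the barcode with most reads, or for none on a tie. The same number of inhibitory neurons, 17, was barcoded, but valid AI counts fell to 13, DMS to 4 and MD to 0, and LH kept 2. The AI count of the mouse 3 cells 5, 7 and 8 fell from 34, 30 and 33 to 5, 3 and 5 UMIs. Cells with more than 1 valid barcode were then 2 in place of 5, the mouse 3 cell 3 (29 AI and 126 DMS UMIs) and the FAC-sorted cell 2 (140 AI and 136 LH UMIs). Both lay in Louvain cluster 0, the excitatory one, and none of the barcoded cells in Louvain clusters 6 and 10 kept more than 1. AI counts of the AI-only cells hardly moved, such as 120 and 120 in cell 1 of mouse 1, while its DMS count fell from 41 to 6. Excitatory neurons with more than 1 valid barcode fell from 732 to 202 under the same counting. Their valid AI counts fell from 824 to 354, and their valid DMS counts from 1284 to 998.

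**Figure D5:**
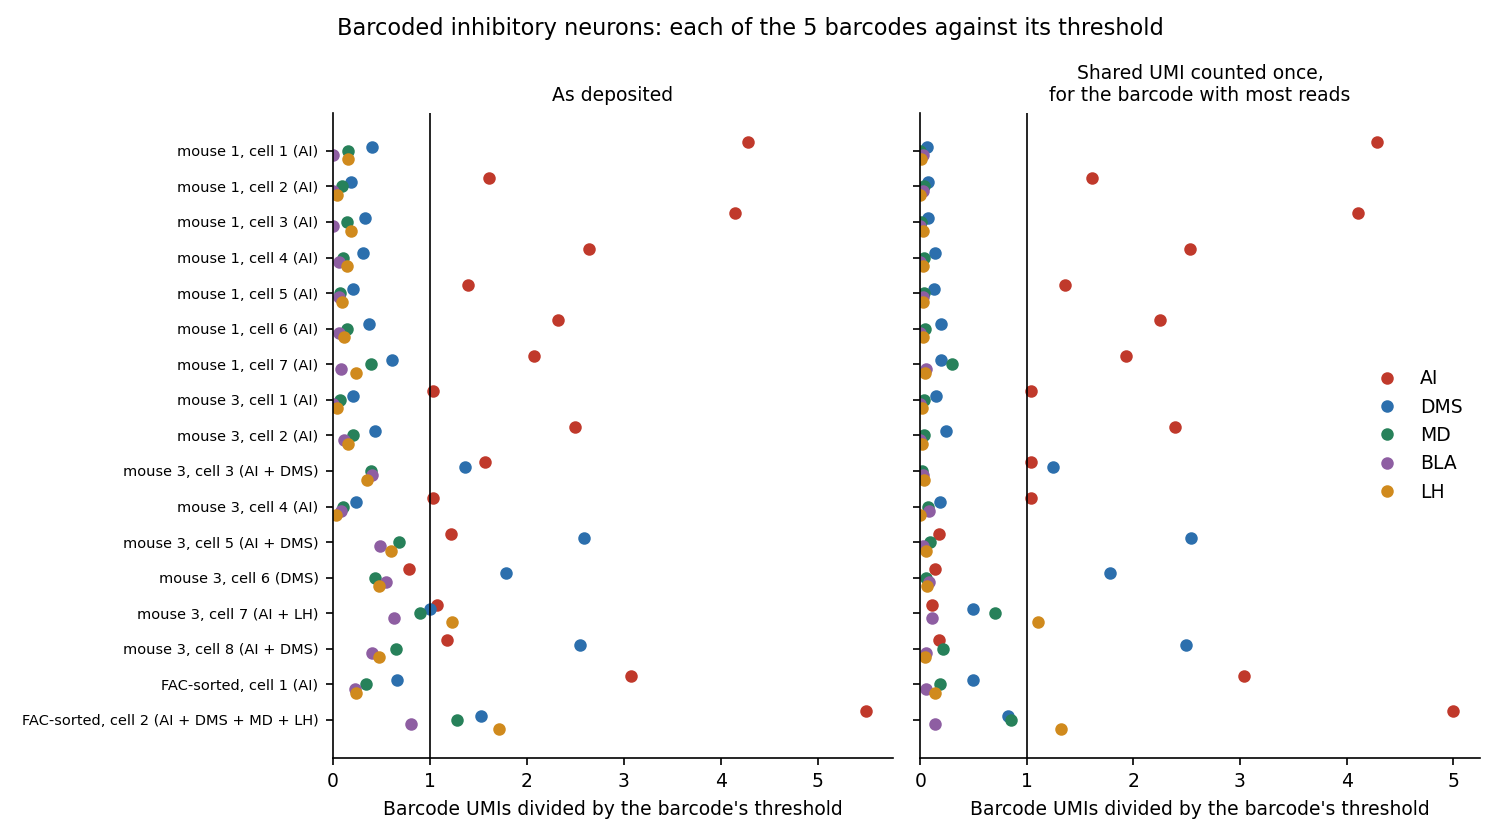
UMIs of each of the 5 barcodes divided by the limit of that barcode (horizontal axis) in the 17 barcoded inhibitory neurons (vertical axis, with the valid targets as deposited in brackets). The left panel uses deposited counts, the right panel counts a shared UMI at most once, and the line at 1 marks the limit. On the right, AI of the mouse 3 cells 5, 7 and 8 moves below the line, and AI-only cells such as cell 1 of mouse 1 keep their place.

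Barcoded inhibitory neurons were deeper than the rest. Their median RNA UMIs were 1.50 times those of other inhibitory neurons in mouse 1 and 1.77 times in mouse 3. In the FAC-sorted library they were 2.56 times as high, from 2 cells against 6. The mean log2 ratio over these 3 libraries was 0.92, with p = 0.25 in an exact sign-flip test, the smallest it allows. The limits are fixed UMI counts, and barcode UMIs rose with RNA UMIs, so the rule itself favours deep cells. The test cannot separate the cells from that rule. Of the 17 cells 13 were above the median depth of the inhibitory neurons of their library and 7 above the 90th percentile. Against excitatory neurons of their library, 10 of 17 were above the median depth.

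The nearest AI counts below the limit were 27 and 24, the nearest DMS counts 101 and 96, and the nearest MD counts 102 and 77. BLA reached 35 and 28, and LH 61 and 49. Of these 10 counts, DMS 101, both of MD, BLA 28 and both of LH belonged to cells already barcoded for another target. Among cells with no valid barcode the highest counts were 27 AI, 96 DMS, 46 MD, 35 BLA and 19 LH UMIs. The lowest valid counts were 29 and 29 (AI), 137 and 154 (DMS), 146 (MD) and 126 and 176 (LH). Of the 12 unsorted inhibitory neurons with at least 10 molecules of at least 10 reads but no valid barcode, 6 were in mouse 1, 2 in mouse 2 and 4 in mouse 3. In mouse 1 a cell with 28421 RNA UMIs had 96 DMS UMIs, of which 35 were read at least 10 times. In mouse 3 a cell with 8867 RNA UMIs had 90 DMS UMIs, of which 27 were read at least 10 times. Both counts were below the DMS limit of 101.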

How the data were processed

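Single-cell libraries of 3 unsorted mice and 1 FAC-sorted pool were used. Per the labels, Cell Ranger and mm10 were used upstream. The deposited annotation gives the count of RNA UMIs and of genes, the percent of mitochondrial and ribosomal UMIs as computed by the authors, clusters and cell types, after their filters on genes, UMIs and mitochondrial share. The authors treated cells above their upper limits of genes and UMIs as possible doublets. No doublet caller was run here. The deposited barcode tables hold UMI counts per cell and barcode that the authors made with a modified deMULTIplex, not normalized. They list 0 for entries of 1 UMI except for AI, as in 928 of 7100 inhibitory entries, and a recount of the read tables gave all other inhibitory entries unchanged. Cells with the highest barcode totals had been removed by the authors, as possible doublets or products of uneven amplification.

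Inhibitory neurons were joined by cell name to the barcode tables. Background rates used summed UMIs of cells with no valid barcode. Comparisons were made within library, by exact two-sided sign flipping over libraries, and differences of the FAC-sorted library from the mice are descriptions. Tests and means over 4 libraries weigh the FAC-sorted pool like 1 mouse. Its cells were gated on EGFP, whose transcript carries the barcodes, so for barcode measures these tests and means mix 2 conditions. Cells were not treated as replicates. Intervals are exact binomial (Clopper-Pearson) at 95%. Beside the 0 of 496 barcoded cells of mouse 2 stands the share that 3 counts would give, while figures draw the exact interval. The items named are all 5 barcodes, all 4 libraries, every barcoded inhibitory neuron and the 2 cells nearest below each limit. The cells, limits and lists were chosen with earlier results of these data known. Molecules of at least 10 reads, Louvain clusters and the recount were added after seeing the data. Alternatives were other limits, other ways of counting UMIs, thinned reads, ranges of depth, means, medians of ratios per cell and left-out libraries. Alternatives counted from the read tables, shared UMIs included, also kept entries of 1 UMI. Where shared UMIs were counted once, a UMI with a tie for most reads was counted for no barcode. Gene tables, EGFP counts and 28 further columns of the series-wide tables were not used. Code recovered 13 of 13 quantities in simulated data. Python 3.11.15, numpy 2.4.6, pandas 2.3.3, scipy 1.17.1 and matplotlib 3.10.9 were used.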

Additional observations from a re-analysis of the deposited data

Results flagged for a closer look

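In the FAC-sorted library 6 inhibitory neurons without a valid barcode ran against the 3 mice in their background barcode rate. Within the middle 50% of inhibitory RNA depth, which leaves 4 of these cells, the log2 ratio to excitatory neurons was -0.28, the sign of the mice. The differences between the sorted library and the mice were not tested, since the FAC-sorted library has no replicate and its rates rest on 455 barcode UMIs. Against excitatory neurons, the log2 ratio over all barcodes was 0.08 in the FAC-sorted library and between -1.06 and -0.70 in the mice. For AI it was 1.42 against -0.85 to -0.67, for DMS 0.02 against -0.63 to -0.33, and for BLA 0.04 against -2.06 to -1.21. MD and LH kept the sign of the mice, with -0.17 and -0.16 in the FAC-sorted library. Against non-neuronal cells, the log2 ratio over all barcodes was 0.43 in the FAC-sorted library and between -0.09 and -0.03 in the mice. For AI it was 1.50 against -0.23 to -0.03, and for DMS 0.19 against -0.18 to -0.11. The AI counts of the 6 cells were 15, 6, 27, 4, 13 and 4 UMIs in order of rising RNA depth, and the 27 belong to a cell with 9831 RNA UMIs. The gate and the read depth of this library, 14639 projectome reads per recovered cell, cannot be told apart from these differences.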

How the results depend on the processing

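Inhibitory neurons had fewer RNA UMIs, fewer genes and a higher mitochondrial share than excitatory neurons as means, beside excitatory neurons with a subtype only and without any 1 library. Within ranges of RNA depth the gene and mitochondrial differences took both signs. The mean difference in barcoded share was negative under every alternative run except UMIs of at least 10 reads. The number barcoded, 17, was 222 with limits that 1 in 100 non-neuronal cells exceeds, 7 with limits per 10000 RNA UMIs that 1 in 1000 exceeds, 9 with UMIs of at least 2 reads, 10 without cells above the 90th percentile of RNA UMIs, and 4, all for AI, with UMIs of at least 10 reads, where AI was valid in 117 of 189 barcoded excitatory neurons and in the 1 non-neuronal cell. It was 9 to 17 when a library was left out, 10 without mouse 1 and 9 without mouse 3. It was 14 without the cells outside Louvain clusters 6 and 10. With the limits per 10000 RNA UMIs, 0.493% of inhibitory neurons, 0.387% of non-neuronal cells and 12.3% of excitatory neurons were barcoded. With the limits that 1 in 100 exceeds, the shares were 15.6%, 2.11% and 69.9% in the same order. The non-neuronal shares are set by the limits themselves. With UMIs of at least 10 reads the mean difference in barcoded share was 1.02 percentage points, positive in the FAC-sorted library (9.21) and negative in each mouse; the cause was not tested. The mean difference, -19.1, was -8.17 with thinned reads and -1.62 with UMIs of at least 2 reads, where the FAC-sorted library turned to 9.61 and 8.36. With the limits that 1 in 100 exceeds the mean difference was -36.0, while the FAC-sorted library alone turned to 1.74. The mitochondrial difference, 0.25, was 1.14 with means. The log2 background ratio to excitatory neurons, -0.60, was 0.11 over the mice when cells were kept only with every barcode at or below the limits that 1 in 100 exceeds. It was -0.12 as a median over cells, -0.77 within the middle 50% of inhibitory depth, -1.12 with UMIs of at least 2 reads and -2.93 with at least 10. The rule on 1 in 100 kept no inhibitory neuron of the FAC-sorted library. The ratio to non-neuronal cells, 0.06, was 0.20 as a median over cells, -0.10 under that rule, -0.0395 with UMIs of at least 2 reads, -0.0420 with single UMIs kept, -0.0496 with these kept and a shared UMI counted once, -0.14 with at least 10 reads, and -0.0658 to 0.11 when a library was left out; the cause was not tested. Tests over 4 libraries cannot reach 0.05, so stability rests on direction. The 8 FAC-sorted cells limit every value of that library. No paired analysis was possible because the FAC-sorted library pools other mice than the unsorted libraries; this concerns sorted against unsorted, while classes of cells were compared within each library.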
